A study of Mus musculus with 4 samples.

Results

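The renin-angiotensin system and the peptidases of the tubular brush border were followed through 8 transcripts, Agt, Ren1, Ace, Agtr1a, Enpep, Mme, Anpep and Klk1. They were taken by gene symbol from the deposited count table. All 8 had a row among its 18383 genes, and all 8 passed the filter on low counts that left 15002 genes for testing. The RNA came from renal primary tubular epithelial cells of the cortex of C57BL/6 mice aged 8 weeks, with 2 libraries for each of 2 genotypes. KM mice had the genotype MYCfl/fl KspCre/+ and KMS mice SETD2fl/fl MYCfl/fl KspCre/+, so both groups share the MYC allele and the Cre transgene and differ by label in floxed SETD2, which encodes the histone H3 lysine 36 methyltransferase. KspCre places Cre under the control of the kidney-specific cadherin promoter, which is active along the tubule rather than in all kidney cells. The series design text differs, pairing SETD2FL/FL KSPCRE/+ mice with mice that carry MYC+ in addition and speaking of triplicates, and the sample labels were followed here. The labels do not say whether animals were pooled. Sex-linked transcripts show that the 2 libraries of each genotype came from different animals, of opposite sex, so the spread behind the p-values includes any difference between the sexes.

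Renin cleaves angiotensinogen to angiotensin I, and angiotensin-converting enzyme turns that into angiotensin II, which acts on the type 1 receptor to constrict vessels and retain sodium. Membrane peptidases of the proximal tubule then trim the angiotensins and other peptides in the filtrate. Tissue kallikrein, made mainly in the connecting tubule, releases kinins, which oppose angiotensin in blood pressure control and are themselves broken down by some of the same peptidases.

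Total counts per library ranged from 8886496 to 18639040, and the KM mean was 1.8 times the KMS mean. Levels are given as CPM, counts scaled by the TMM-adjusted library total. Setd2 itself stood at 54.3 and 58.1 CPM in KM libraries against 58.3 and 49.2 CPM in KMS libraries, and since the labels name no floxed exon this does not check the genotype. Replicate 1 of both genotypes held Xist (12967 and 4363 counts) with at most 1 count of any of 4 Y-linked genes, and replicate 2 held Y-linked transcripts with 10 counts and 1 count of Xist, so the replicate number follows sex in these libraries. Pair ratios, the log2 ratio of CPM + 0.5 of KMS over KM at equal replicate number, are therefore printed beside the pooled values. KM replicate 2 stood apart. Its summed tubular injury markers reached 9185 CPM, against 3669 CPM in KM replicate 1 and 2790 and 1005 CPM in the KMS replicates, and its summed distal and connecting tubule markers only 444 CPM, against 1116, 2371 and 1856 CPM. Proximal tubule markers were present in every library, with Slc34a1 at 2236 CPM or more, and endothelial, podocyte, leukocyte and smooth muscle markers were also detected in all 4.

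The stretches of 250 bases before the start sites of the 4 transcripts on which the results turn are given as reference, from the RefSeq promoter table of GRCm38.p6 read 5′ to 3′ on the gene's own strand. They cover chr8:124569707-124569956 on the minus strand for Agt, chr1:133350424-133350673 on the plus strand for Ren1, chr3:129332750-129332999 on the minus strand for Enpep and chr7:44225110-44225359 on the plus strand for Klk1. Capitals mark the TATA box letters TATAAA on either strand.
Agt: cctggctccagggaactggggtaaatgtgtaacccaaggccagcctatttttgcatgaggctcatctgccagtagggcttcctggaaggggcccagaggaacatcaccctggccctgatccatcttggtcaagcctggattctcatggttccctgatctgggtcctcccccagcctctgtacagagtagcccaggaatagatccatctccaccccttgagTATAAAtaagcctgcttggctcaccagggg
Ren1: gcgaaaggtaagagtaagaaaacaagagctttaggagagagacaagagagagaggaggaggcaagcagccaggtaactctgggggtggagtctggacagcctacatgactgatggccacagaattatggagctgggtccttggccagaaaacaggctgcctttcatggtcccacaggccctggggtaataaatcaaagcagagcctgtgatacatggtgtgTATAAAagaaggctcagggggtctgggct
Enpep: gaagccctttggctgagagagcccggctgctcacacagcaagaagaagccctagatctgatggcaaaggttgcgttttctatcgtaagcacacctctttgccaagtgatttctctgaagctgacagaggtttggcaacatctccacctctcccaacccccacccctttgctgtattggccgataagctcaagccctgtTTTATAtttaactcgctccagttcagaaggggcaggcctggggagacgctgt
Klk1: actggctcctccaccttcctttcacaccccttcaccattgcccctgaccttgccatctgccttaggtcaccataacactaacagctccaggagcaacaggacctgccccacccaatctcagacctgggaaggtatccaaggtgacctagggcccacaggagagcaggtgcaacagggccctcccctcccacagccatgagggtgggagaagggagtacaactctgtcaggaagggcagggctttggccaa
The letters stood 30 bases before the start in Agt, 29 in Ren1 and 52 in Enpep, counted to their first base, and were not in the Klk1 window. Of 32851 promoter windows of this length, 12.4% held them. The E-box bound by MYC, CACGTG, which 6.02% of windows hold, was not in any of these 4 windows, nor were the CRE letters TGACGTCA (1.55% of windows) or the HNF1 half-site GTTAAT (6.43% of windows), searched on both strands. These matches describe the letters only, as no measurement of promoters was made.

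Agt was the member that differed most between the genotypes and was far lower in KMS, Klk1 and Enpep were higher in both KMS libraries, and the enzymes renin and ACE and the type 1 receptor overlapped between the genotypes. None of the 8 passed the edgeR test at an adjusted p of 0.05 over all genes, a level that 0.0333% of tested genes reached (5 of 15002). At an adjusted p of 0.1, 1 member passed, Agt, against 8.11% of genes. At an unadjusted p under 0.05 there were 3 of 8 members, against 26.3% of tested genes. The libraries of the genotypes did not overlap for 4 of 8 members, against 60.3% of tested genes, so neither share of these few genes stands far from the background. DESeq2 called 2 of the 8, Agt lower and Enpep higher, where it called 11.8% of genes. With a term for the replicate number, which follows sex here, edgeR called Agt lower and Klk1 higher, where it called 5.43% of genes. limma-voom called none, and the authors' deposited table held 0 of the 8 with an adjusted p under 0.05, against 2.22% of its genes. An exact permutation test of 2 against 2 libraries cannot give a two-sided p under 0.33, so none was used, and the p-values here come from models fitted over all genes.

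**Figure D1:**
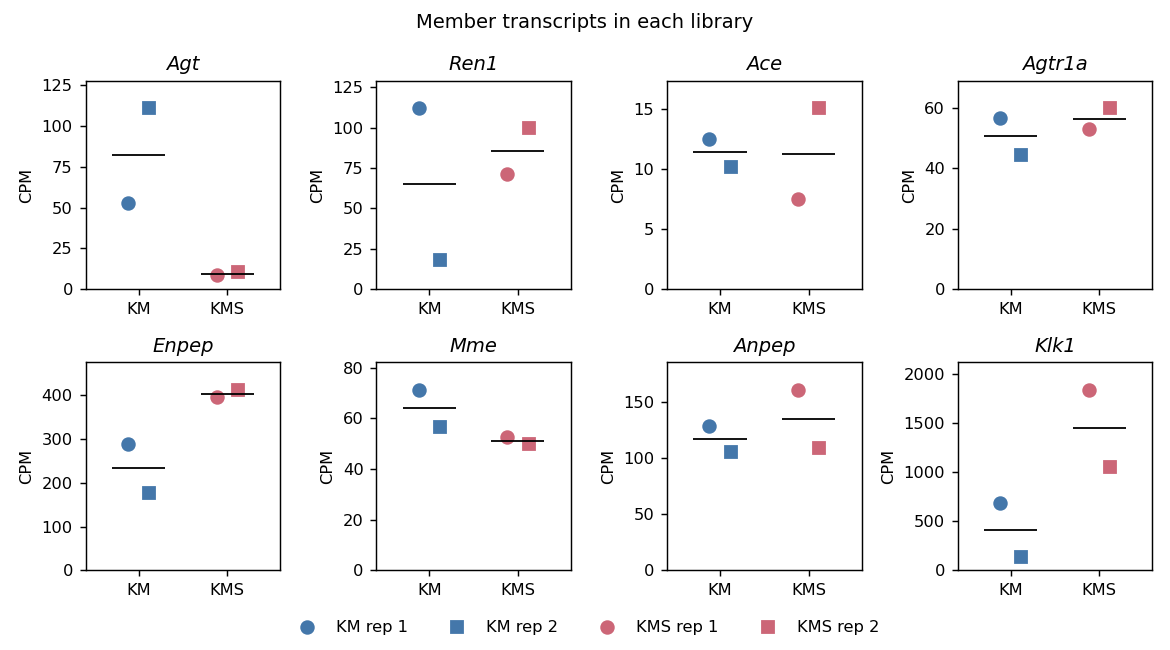
Level of each member in every library, in CPM on linear axes that start at 0, with circles for replicate 1, squares for replicate 2 and bars for the mean of each genotype. Agt sits at 53 and 111 CPM for KM and at 8.27 and 10.4 CPM for KMS, while Ren1 and Klk1 are lowest in KM replicate 2.

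Agt (chromosome 8, 124556534 to 124569706, GRCm38) encodes angiotensinogen, the substrate of renin. The KM libraries held 981 and 1820 counts (53 and 111 CPM) and the KMS libraries 80 and 86 counts (8.27 and 10.4 CPM). Both KMS libraries lay well below both KM libraries, and the KM replicates differed from each other 2.1-fold. The KM mean was 82.2 ± 41.4 CPM and the KMS mean 9.36 ± 1.54 CPM (SD, n = 2 libraries), a level 8.79-fold lower in KMS by the fit. On the log2 scale this was -3.14 ± 0.40 (SE; adjusted p = 0.0662 and unadjusted p = 0.000207 by edgeR), which ranked 36th of 15002 genes by p. With all 4 libraries it passed by DESeq2 (adjusted p = 1.8e-11) and by edgeR with a term for the replicate number (adjusted p = 0.00231). It did not pass in the edgeR fit on genotype alone. Without KM replicate 2 it was -2.50 and passed (edgeR adjusted p = 0.00356, where 1.14% of genes were called), and without KM replicate 1 it was -3.56 (edgeR adjusted p = 0.000136, where 11.5% were called). Without KMS replicate 1 it was -2.94 and without KMS replicate 2 -3.29, with edgeR adjusted p = 0.131 and 0.287. The ratio within the replicate 1 pair was -2.61 and within the replicate 2 pair -3.35 on the log2 scale, lower in KMS in 2 of 2 pairs. In bulk RNA, fewer cells of a type and less RNA per cell cannot be told apart. Marker lists went both ways. Those of fibroblasts, leukocytes and injury lay in the same direction as Agt, as did 10 of 11 tested juxtaglomerular and smooth muscle markers. Proximal tubule (13 of 13), podocyte (8 of 8) and distal and connecting tubule markers (9 of 10) were positive. Endothelial markers split 5 and 5, and proximal straight tubule markers were 4 positive and 3 negative. The fibroblast markers summed to 92.1 and 151 CPM in KM libraries against 41.3 and 48.2 CPM in KMS libraries, with 5 of 5 tested negative and Lum at 0 in KMS replicate 2. The leukocyte markers summed to 455 and 913 CPM against 327 and 213 CPM, with 8 of 8 tested negative. All 8 injury markers were negative too, and Havcr1 was at 0 in KMS replicate 1, while KM replicate 2 was highest for these sums as for Agt. None of the fibroblast, leukocyte and injury markers was called by edgeR. DESeq2 called 4 of 5, 5 of 8 and 6 of 8 lower, where it called 11.8% of all genes. The part of any of these cells or of injury in the value of Agt was not tested. The authors' deposited table gives Agt a log2 fold change of -3.10 with an adjusted p of 0.105.

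Ren1 (chromosome 1, 133350510 to 133360325) encodes renin, the aspartic protease that juxtaglomerular cells of the afferent arteriole release. The KM libraries held 2081 and 294 counts (112 and 18 CPM) and the KMS libraries 686 and 821 counts (71 and 99.7 CPM). KM replicate 1 was the highest and KM replicate 2 the lowest of the 4 libraries, 6.24-fold apart, and both KMS libraries lay between them. Renin thus showed a log2 difference of 0.39 ± 0.74 (SE; adjusted p = 0.773 by edgeR). Its direction rested on KM replicate 2. Without that library it was -0.39 (edgeR adjusted p = 0.625), and without KM replicate 1 it was 2.26 (edgeR adjusted p = 0.00414). Within pairs the log2 ratio was -0.66 for replicate 1 and 2.44 for replicate 2. The 12 juxtaglomerular and smooth muscle markers summed to 269 and 278 CPM in KM libraries against 200 and 179 CPM in KMS libraries, with Mcam and Pdgfrb the highest. Of 11 tested, 10 were negative, with 0 called by edgeR and 1 called lower by DESeq2 and 1 with the replicate block. The last 2 fits called 11.8% and 5.43% of all genes. The marker sum was nearly equal in the 2 KM libraries, but single markers moved in opposite directions between them. In KM replicate 2, 1 marker was 8.42-fold higher than in KM replicate 1 and another 2.61-fold lower. The sum therefore does not show that the content of these cells was equal. The part of these cells in the value of Ren1 was not tested.

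Ace (chromosome 11, 105967945 to 105989964), the peptidase that forms angiotensin II by removing a dipeptide from angiotensin I and also degrades bradykinin, was the member of lowest level per length of exon. The KM libraries held 232 and 167 counts (12.5 and 10.2 CPM) and the KMS libraries 73 and 124 counts (7.55 and 15.1 CPM). The KMS libraries lay below and above both KM libraries. Ace differed by -0.01 ± 0.37 on the log2 scale (SE; adjusted p = 0.986 by edgeR), and the sign changed with the filter and with single libraries left out. The pair ratios were -0.69 and 0.54. Endothelium also carries ACE, and the 10 endothelial markers summed to 1412 and 1135 CPM in KM libraries against 1574 and 890 CPM in KMS libraries, with 5 of 10 positive and 0 called by edgeR, with or without the replicate block, or by DESeq2. KMS replicate 1 had the lowest Ace and the highest endothelial sum, and the part of these cells in the value of Ace was not tested. In GENCODE M21, 295 exonic bases of Ace overlap Gm11651 on the opposite strand, and the sources used here do not say whether reads were counted by strand.

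Agtr1a (chromosome 13, 30336441 to 30382867), the main type 1 receptor of angiotensin II in mice, varied little. The KM libraries had 56.8 and 44.5 CPM, the KMS libraries 53 and 60 CPM, and the 4 interleaved. The means were 50.6 ± 8.73 and 56.5 ± 4.98 CPM (SD, n = 2), which differed by 0.16 ± 0.19 on the log2 scale (SE; adjusted p = 0.635 by edgeR). The pair ratios were -0.10 and 0.43.

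Enpep (chromosome 3, 129269175 to 129332720) encodes glutamyl aminopeptidase, which converts angiotensin II to angiotensin III. The KM libraries held 5359 and 2889 counts (289 and 177 CPM) and the KMS libraries 3821 and 3402 counts (395 and 413 CPM). The KMS libraries were close together and above both KM libraries, which differed 1.64-fold. Enpep differed by 0.79 ± 0.29 on the log2 scale (SE; adjusted p = 0.157 and unadjusted p = 0.0338 by edgeR), with pair ratios of 0.45 and 1.22, higher in KMS in 2 of 2 pairs. It was 0.49 without KM replicate 2 (edgeR adjusted p = 0.538), 1.20 without KM replicate 1 (edgeR adjusted p = 0.0372), and passed the DESeq2 Wald test narrowly (adjusted p = 0.0495).

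Mme (chromosome 3, 63241537 to 63386030) encodes neprilysin, which cleaves angiotensin I, bradykinin and natriuretic peptides. It was the other member lower in both KMS libraries, at 71.3 and 56.7 CPM in KM libraries against 52.5 and 49.9 CPM in KMS libraries. The gap between the groups was smaller than the gap between the KM replicates. The fitted difference was -0.32 ± 0.18 on the log2 scale (SE; adjusted p = 0.31 by edgeR). Neprilysin is also a podocyte and leukocyte antigen, CD10, and leukocyte markers summed to 455 and 913 CPM in KM libraries against 327 and 213 CPM in KMS libraries, with 8 of 8 tested negative. Podocyte markers summed to 2261, 1158, 2658 and 2472 CPM in the same order. Their part in the value of Mme was not tested.

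Anpep (chromosome 7, 79821803 to 79861059) encodes aminopeptidase N, an abundant brush border enzyme that takes angiotensin III to angiotensin IV. The KM libraries had 129 and 105 CPM and the KMS libraries 161 and 109 CPM. KMS replicate 2 lay between the KM libraries, so the genotypes overlapped. The fitted log2 difference was 0.20 ± 0.25 (SE; adjusted p = 0.642 by edgeR), and the pair ratios were 0.32 and 0.05.

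Klk1 (chromosome 7, 44225360 to 44229618), tissue kallikrein, was the most abundant member per length of exon. The KM libraries held 12633 and 2221 counts (682 and 136 CPM) and the KMS libraries 17764 and 8684 counts (1837 and 1055 CPM). Both KMS libraries exceeded both KM libraries, and KM replicate 2 was 5.01-fold below KM replicate 1. The means were 409 ± 386 and 1446 ± 553 CPM (SD, n = 2). Klk1 differed by 1.82 ± 0.74 on the log2 scale (SE; adjusted p = 0.189 and unadjusted p = 0.0493 by edgeR), with pair ratios of 1.43 and 2.95, higher in KMS in 2 of 2 pairs. Without KM replicate 2 it was 1.09 (edgeR adjusted p = 0.258), and without KM replicate 1 it was 3.42 (edgeR adjusted p = 0.00251). Markers of the distal and connecting tubule summed to 1116 and 444 CPM in KM libraries against 2371 and 1856 CPM in KMS libraries. Of these 10 markers, 9 were positive. None of the 10 was called by edgeR. DESeq2 called 3 higher, where it called 11.8% of all genes. The fit with the replicate block called 4 higher, where it called 5.43%. The sodium chloride cotransporter gene Slc12a3 had 530 and 117 CPM against 1077 and 787 CPM, and the calcium-binding protein gene S100g 159 and 150 CPM against 480 and 370 CPM. Set against the distal sum, Klk1 came to 61.1 and 30.6% in KM and 77.5 and 56.8% in KMS, a log2 ratio of the means of 0.55. The groups overlapped on this scale, as KM replicate 1 lay above KMS replicate 2. The part of these cells in the value of Klk1 was not tested. Of the 100-base words in Klk1 transcripts, 5.09% also occur in Klk1b5 or Klk1b11, so a small part of its counts is uncertain. Apart from Ace, with 1.88% of its words in Gm11651, the other members shared none.

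**Figure D2:**
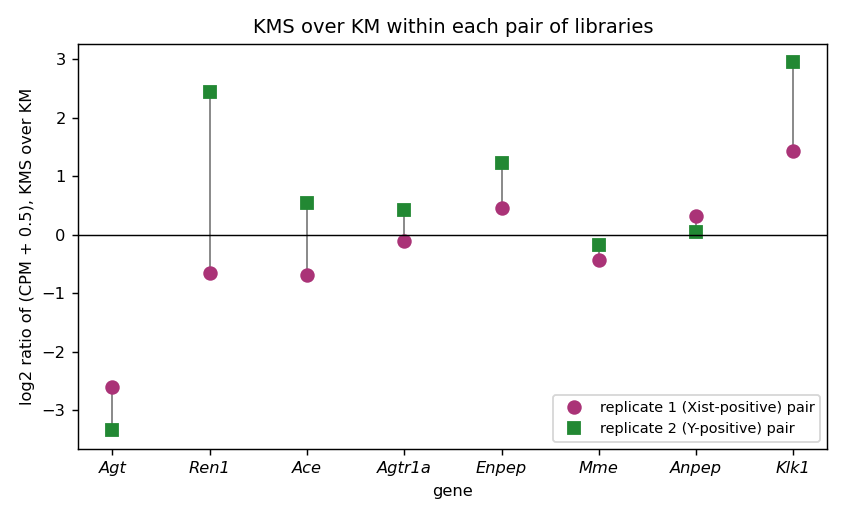
KMS over KM within each pair of libraries of equal replicate number, as log2 ratios of CPM + 0.5, with circles for the replicate 1 pair, which carries Xist, and squares for the replicate 2 pair, which carries Y-linked transcripts. Agt is negative in both pairs, Klk1 and Enpep are positive in both, and Ren1 runs from -0.66 to 2.44.

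Most of the other brush border genes were higher in KMS by value. Of 10 such genes 9 were tested, 8 were positive and 1 negative, and the median log2 fold change was 0.89 beside -0.01 over all tested genes. In 7 of them both KMS libraries were above both KM libraries, as they were in 29% of all tested genes. None was called by edgeR, while DESeq2 called 2 higher and the fit with the replicate block 2 higher. Over all genes these 2 fits called 11.8% and 5.43%. For Folh1, Acy3, Mep1a, Dpp4, Tmem27 and Ggt1 the log2 ratio was only 0.02 to 0.31 within the replicate 1 pair. Within the replicate 2 pair the same genes had 0.75 to 2.74. Their pooled values, and with them the median of 0.89, thus rested largely on the replicate 2 pair. Dpep1 and Xpnpep2 were also higher within the replicate 1 pair, at 1.67 and 1.29. The difference between the pairs was not tested. Dpep1, a dipeptidase that acts on cysteinylglycine and leukotrienes, had 72.9 and 62.5 CPM in KM libraries against 233 and 269 CPM in KMS libraries, and its KM libraries were close together. Its log2 difference of 1.89 ± 0.21 did not pass (SE; adjusted p = 0.0662 by edgeR). Acy3, an aminoacylase, had a log2 fold change of 1.92, with KMS replicate 2 at 1377 CPM and the other libraries at 205 to 235 CPM. Ggt1, the gamma-glutamyltransferase of glutathione breakdown, had 385 and 326 CPM against 476 and 837 CPM, and Mep1a, the meprin alpha subunit, 514 and 327 CPM against 550 and 1009 CPM. Tmem27, a membrane protein gene that serves amino acid transporters, had 1286 and 807 CPM against 1520 and 1886 CPM. Dpp4 at 213 and 130 CPM against 251 and 219 CPM, Folh1 and Xpnpep2 were also positive by value (0.46, 0.44 and 1.26 on the log2 scale). The negative one was Naaladl1, a relative of Folh1, with 63 and 12 counts in KM libraries against 9 and 0 in KMS libraries (-2.07 on the log2 scale; adjusted p = 0.313 by edgeR).

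Among the other genes of the renin-angiotensin system, 5 of 13 had no row, including Agtr1b and Agtr2. Of 7 tested, 4 were positive and 3 negative, 0 were called by edgeR, with or without the replicate block, or by DESeq2, and the median log2 fold change was 0.00. Agtrap, which binds the type 1 receptor and promotes its internalization, had 62.6 and 73.6 CPM in KM libraries against 98.3 and 112 CPM in KMS libraries. The oligopeptidase gene Thop1 had 24.7 and 31.5 CPM against 18 and 12.8 CPM, and Prep 38.1 and 43.4 CPM against 30.7 and 27.3 CPM. Atp6ap2, the prorenin receptor and a V-ATPase accessory subunit, had a log2 fold change of 0.33, Prcp 0.20, Nln 0.00 and Lnpep -0.18, all with an edgeR adjusted p of 0.366 or more.

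The kinin genes went both ways. Of 20 listed, 13 had a row and 7 were tested, with 3 positive, 4 negative and a median log2 fold change of -0.38. None was called by edgeR, while DESeq2 and the fit with the replicate block each called 1 higher and 2 lower. Of all genes, DESeq2 called 11.8% and the fit with the block 5.43%. Kng1, a kininogen gene, had 4.97 and 32.1 CPM in KM libraries against 1.55 and 1.09 CPM in KMS libraries, whereas its close paralog Kng2, with which it may share reads, had 148 and 76.7 CPM against 189 and 188 CPM. These corresponded to -3.79 ± 0.94 and 0.75 ± 0.33 on the log2 scale (SE; adjusted p = 0.0973 and 0.211 by edgeR). Bdkrb2, the constitutive bradykinin receptor, stood at 76 and 66 counts (4.1 and 4.04 CPM) in KM libraries against 9 and 3 (0.931 and 0.364 CPM) in KMS libraries. Its log2 difference was -2.61 ± 0.53 (SE; adjusted p = 0.0823 by edgeR). Carboxypeptidase M, Cpm, had 44.7 and 31.5 CPM against 25.5 and 19.9 CPM. Klk1b5, whose transcript shares stretches with Klk1, followed it at 6.91 and 1.35 CPM against 18.7 and 13.5 CPM.

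**Figure D3:**
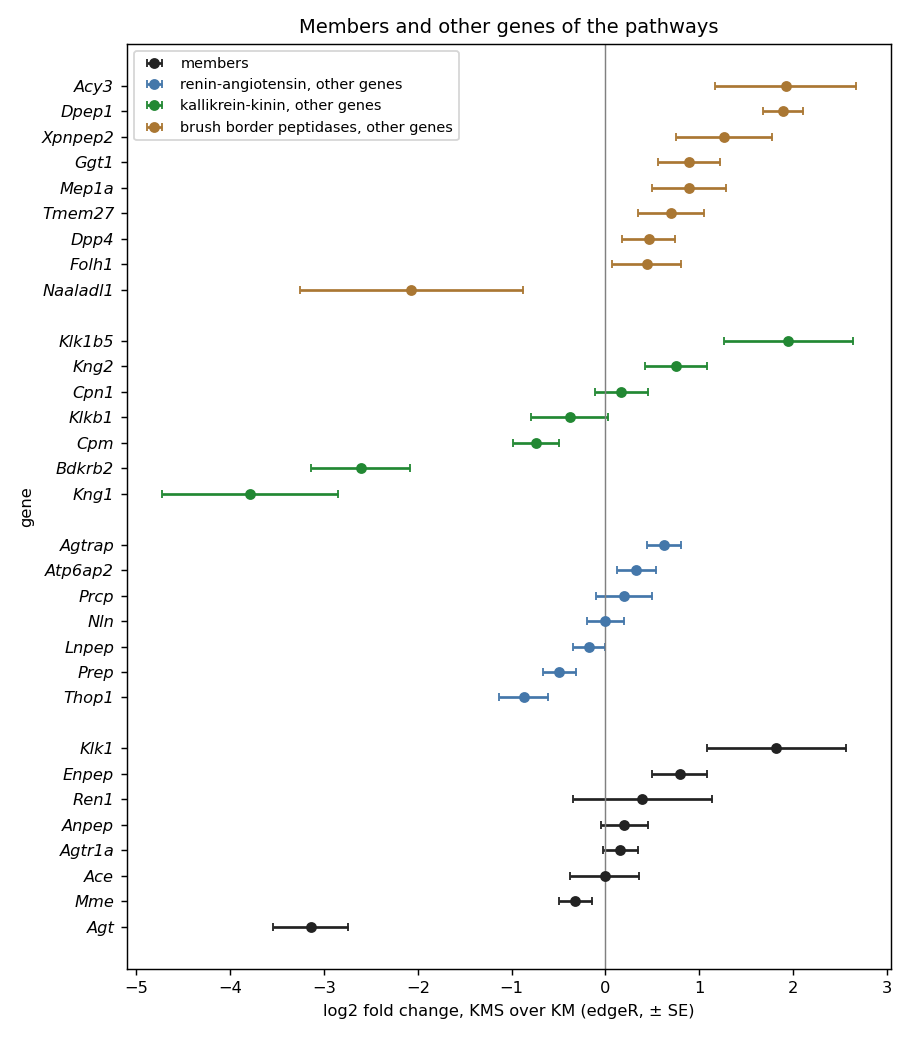
Log2 fold change of KMS over KM with its standard error from the edgeR fit, for the 8 members and the other tested genes of 3 lists. Agt at -3.14 and Kng1 at -3.79 lie farthest to the left, and 8 of 9 other brush border genes lie to the right of 0.

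The members differed widely in level. Counts per kilobase of exon, scaled as TPM values are over the 87.7% of symbols with a GENCODE M21 length, put Klk1 first with 644 to 6933 over the 4 libraries, and its range lay above that of every other member. Enpep (192 to 341), Ren1 (55.4 to 331), Anpep (94.5 to 158) and Agt (17.8 to 301) followed by mean, and each of these ranges overlapped the next, so their order is within the spread between libraries. Agtr1a came next at 77.2 to 99.4, above Mme at 15.6 to 30.1 and Ace at 5.8 to 11.6, whose ranges did not overlap. By genotype, Agt had a mean level per length of 219 ± 116 in KM and 18.8 ± 1.48 in KMS (SD, n = 2). Its mean lay above that of Anpep in KM (141 ± 16.2) and below that of Agtr1a in KMS (77.4 ± 0.157). In KM replicate 1, however, Agt lay below Anpep (137 against 152). Agtr1a per length was 99.4 and 81.4 in KM against 77.2 and 77.5 in KMS, without overlap, whereas its CPM values interleaved. Per-length values are scaled to their own library sum without TMM factors, so the 2 scales set the genotypes differently. Anpep shifted likewise, with KM and KMS means of 141 and 126 per length but 117 and 135 CPM. The share of all genes without overlap per length was not counted, so this is not a result about Agtr1a.

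**Figure D4:**
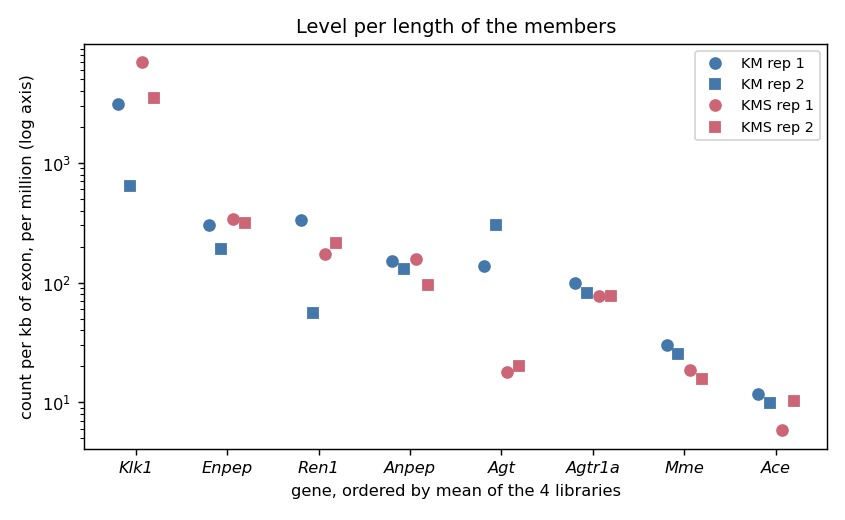
Level of each member per length in each library, scaled to the same library sum on a log axis, ordered by the mean of the 4 libraries, with blue for KM and red for KMS. Klk1 spans 644 to 6933, and Agt is the member whose genotypes are farthest apart.

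All 13 proximal tubule markers had a higher value in KMS, and their summed level was 9720 and 7167 CPM in the KM libraries against 19874 and 16967 CPM in the KMS libraries. None was called by edgeR, while DESeq2 called 11 of 13 higher and the fit with the replicate block 4. The shares of all genes called were 11.8% and 5.43%. The phosphate transporter gene Slc34a1 had 2815 and 2236 CPM against 6579 and 5411 CPM, and the endocytic receptor gene Lrp2 1713 and 1065 CPM against 2533 and 2283 CPM. Set against this sum, the brush border and receptor genes were lower in KMS. Enpep came to 2.98 and 2.47% of the marker sum in KM and 1.99 and 2.44% in KMS, a log2 ratio of the means of -0.30. Anpep came to 1.33 and 1.46% against 0.81 and 0.64%, and Mme to 0.734 and 0.791% against 0.264 and 0.294%, log2 ratios of -0.95 and -1.45. Agtr1a and Ace had log2 ratios of -0.96 and -1.10, and Agt went from 0.545 and 1.55% to 0.0416 and 0.0616%, a ratio of -4.35. For these 6 members both KMS libraries lay below both KM libraries on this scale, while Ren1 and Klk1 overlapped. A higher marker sum lowers every such share, and no test was made on it. How many of all tested genes lay lower on this scale was not counted. The count of 6 is therefore not a result about the members.

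**Figure D5:**
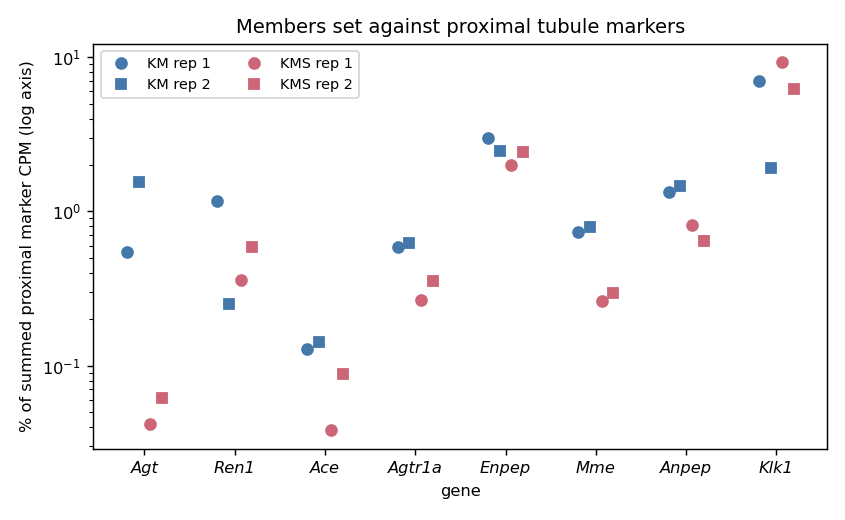
Level of each member in each library as a percentage of the summed CPM of 13 proximal tubule markers, on a log axis, with blue for KM and red for KMS. Agt, Ace, Agtr1a, Enpep, Mme and Anpep have both KMS points below both KM points, and for Enpep the nearest points are 2.47 and 2.44%. The marker sum itself was higher in KMS, which lowers every percentage.

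Among 46 tested genes of the 3 pathway lists and of the proximal and distal lists, the nearest to each member were found by the root-mean-square difference of centred log2 values over the 4 libraries. Enpep was closest to Lrp2 (0.08) and Kng2 (0.09), and Klk1 to Klk1b5 (0.17) and Slc12a3 (0.20). Anpep and Agtr1a were both closest to Atp6ap2 (0.13 and 0.18), Ace to Prcp (0.15) and Mme to Lnpep (0.16). Agt and Ren1 had no close match among these candidates, with Kng1 (0.59) and Slc8a1 (0.57) the nearest. Genes of the fibroblast, leukocyte, injury and juxtaglomerular lists were not among the candidates, so closer genes there were not looked for. With 4 libraries this is a description of shape only.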

How the data were processed

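Poly(A) RNA was sequenced from 4 libraries, grouped by genotype label. The authors deposited raw read counts per gene, per the file headers. Its other columns are the authors' scaled mean signal for each genotype, their fold change as a ratio, its log2 value and p-values from an unnamed test. The submitters' processing notes list HISAT2, StringTie, cutadapt 1.9.1, Trimmomatic 0.35 and the build GRCm38 (mm10), while the program that counted reads and its use of strand are not given there. Counts were tested over all genes with edgeR 4.0.16 in R 4.3.3 (TMM, quasi-likelihood F test, genotype as the only term, filterByExpr with minimum count 10 and total 15, Benjamini-Hochberg), and SEs come from the F statistic. Positive values mean higher in KMS. Pair ratios added 0.5 CPM. On counts simulated for KMS against KM over 15002 genes this fit recovered 16 of 100 genes changed 2-fold and 86 of 100 changed 4-fold. It called 2 unchanged genes. The changed genes were drawn from those with higher counts, and dispersions followed the fitted trend. No sex difference or outlying library was simulated, so recovery in the real libraries may be lower. Alternatives were DESeq2 1.42.0, limma-voom 3.58.1, other scalings and filters, a replicate block and each library left out. Lengths, positions, overlaps and shared 100-base words come from GENCODE M21. The text names all members, any gene of the 3 pathway lists (1 gene was left out of the lists and is not reported here), the 2 markers of highest level in a list, and the nearest genes by pattern. Members and lists were chosen with earlier results of these data known. Replicates differed beyond sampling noise (chi-square per degree of freedom 53.6 in KM and 40.1 in KMS).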

Additional observations from a re-analysis of the deposited data

Results flagged for a closer look

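The KMS against KM ratio took opposite signs in the 2 pairs of libraries for 3 of 8 members (37.5%), as it did for 28% of tested genes. With 1 pair each the difference between pairs was not tested. For Ren1 the replicate 2 pair exceeded the replicate 1 pair by 3.10 on the log2 scale (-0.66 against 2.44), with KM replicate 2 at 18 CPM. For Ace the difference was 1.23 (-0.69 against 0.54), and for Agtr1a 0.53 (-0.10 against 0.43).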

How the results depend on the processing

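Over 13 alternatives of the fit for each of 8 members (104 values), 88 kept their direction and their side of the threshold, 9 newly passed it and 7 changed sign. With none of the members called in the edgeR fit, DESeq2 called 2 (1 higher, 1 lower), where it called 11.8% of all genes. An adjusted p under 0.1 gave 1, Agt, lower, where 8.11% of all genes passed. Leaving out each library gave 0 to 4 calls (0 to 3 higher, 0 to 1 lower), with 4 without KM replicate 1, where 11.5% of all genes were called, and 1 without KM replicate 2, where 1.14% were. Of the other 23 tested pathway genes, 0 passed in the edgeR fit, 5 by DESeq2 (3 higher, 2 lower), 3 at an adjusted p under 0.1 (1 and 2) and 0 to 7 with a library left out (0 to 5 higher, 0 to 2 lower). The fit with the replicate number as a block called 2 members (1 higher, 1 lower), Klk1 (log2 fold change 2.19, edgeR adjusted p = 0.0355) and Agt (-3.05, edgeR adjusted p = 0.00231), where 5.43% of all genes were called, and 5 pathway genes (3 higher, 2 lower). The deviations of same-numbered libraries correlated at only 0.0657 over 14997 genes, so the numbers are not shown to pair the samples. Sign changes affected Ace (0.01 without a filter, 0.00 without mitochondrial, haemoglobin and sex-linked genes, and -0.57 to 0.44 with a library left out), Ren1 (-0.39 to 2.26), Agtr1a (0.00 to 0.36) and Anpep (-0.07 to 0.48), the last 3 with a library left out; the cause was not tested. Agt stayed between -3.56 and -2.50, and Mme between -0.47 and -0.13. Library totals alone moved the median of all genes by -0.12. The same 4 members did not overlap under all 3 other scalings, a check added after the data were seen. Lengths from the longest transcript moved 7 of 16 per-length means by more than their SD.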

Other observations

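Several genes of the kinin and angiotensin pathways were too low to test. Mas1, the receptor of angiotensin 1-7, had 2 and 3 counts in the KM libraries and 0 and 13 in the KMS libraries. The kallikrein paralogs Klk1b3, Klk1b8, Klk1b9, Klk1b16, Klk1b22 and Klk1b24 had between 0 and 17 counts in any library, and Klk1b16 had 1 count in each KM library and 6 and 8 in KMS. Mep1b, the meprin beta subunit, had 57 counts in KM replicate 1 and 3, 1 and 1 in the other libraries. Markers of the proximal straight tubule were uneven, with 4 positive and 3 negative. Slc7a13 stood at 388 CPM and Acsm3 at 387 CPM in KMS replicate 2, and at 14.5 and 17.8 CPM in KM replicate 2. In replicate 1 of KM and KMS, Slc7a13 had 1.13 and 0.414 CPM and Acsm3 2.16 and 4.03 CPM. Both genes were thus higher in the replicate 2 libraries, which hold Y-linked transcripts, in each genotype.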
